A study of Mus musculus with 8 samples.

Results

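Transcription factor genes that cells switch on early after a stimulus, of the AP-1 family and its relatives, were followed in the retina of C57BL/6J mice after prolonged hyperoxia. They were *Atf3*, *Fos*, *Fosb*, *Fosl1*, *Fosl2*, *Jun*, *Junb*, *Jund*, *Egr1* and *Maff*, taken by name, and they are 10 of the 19938 genes with a probe set that the array's annotation ties to a single gene symbol. All 10 were measured, each by 1 such probe set. The samples were hybridised to 8 Affymetrix Mouse Gene 1.0 ST arrays, whose short probes are spread along each transcript, in 4 groups of 2 arrays: the inferior retina after hyperoxia, the inferior control retina, the superior retina after hyperoxia and the superior control retina. Mice of the hyperoxia groups breathed 75% oxygen for 14 days, starting at 83 to 90 days of age, and controls lived in normoxia until they reached the age of the exposed mice. Both were raised and kept in dim cyclic light, 12 h at 5 lux and 12 h of darkness. Each array held a pool of 2 mice (a male and a female), so a value is a mean over both. The question asked of these data was how the 2 regions differ before and after the exposure, since photoreceptors of the inferior retina are the more vulnerable ones in this strain.

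AP-1 factors bind DNA as pairs. A Fos protein pairs with a Jun protein, Jun proteins also pair with each other, and ATF proteins such as Atf3 join Jun proteins or pair with themselves. The pairs bind the sequence TGAGTCA (the TPA response element) or TGACGTCA (the cAMP response element). In neurons and glia the genes of *Fos*, *Junb* and *Egr1* are known for transcripts that appear within minutes of a stimulus and are soon degraded, while *Atf3* is known as a marker of injured and stressed cells, among them injured retinal ganglion cells.

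Values are log2 signals, on which a difference of 1 is a doubling. A change counted as called where the adjusted p from limma, corrected over all 28853 probe sets, was under 0.05. Array medians lay between 6.98 and 7.05. Rod genes carried a summed linear signal of 36817 to 42122 on the hyperoxia arrays and 40160 to 42296 on the control arrays, a sum led by a few very bright genes; in the inferior retina 0 of the 4 rod genes were called by limma after hyperoxia, and 1 was lower at an unadjusted p of 0.00184, with a change of -0.41. The 4 Muller cell genes summed to 9814 and 11024 in the inferior retina after hyperoxia against 14087 and 13510 in controls, and 1 of them, the glutamine synthetase gene *Glul*, was called lower, by a change of -0.70 (adjusted p = 0.0416). *Glul* was the brightest of the 4 and led this sum. The median change of the 4 genes was 0.04, so the lower sum does not stand for the list as a whole. The 8 marker genes of microglia and macrophages summed to 2205 and 2461 in the inferior retina after hyperoxia against 863 and 863 in the inferior control retina, and 6 of the 8 were called higher. In the superior retina they summed to 1157 and 1135 after hyperoxia against 791 and 762 in controls. There 1 was called by limma, and 6 had an unadjusted p under 0.05, all higher after hyperoxia. The 9 lens genes summed to 42190 on control inferior replicate 2 and to 877 to 2819 on the other 7 arrays. The 8 genes of retinal pigment epithelium summed to 6846 and 7362 in the superior retina after hyperoxia against 2357 and 4674 in controls, with 0 called by limma, 5 at an unadjusted p under 0.05. In the inferior retina these genes summed to 6188 and 6098 after hyperoxia against 3735 and 7117 in controls. There 0 were called and 0 had such a p, and the control arrays of each region lay far apart.

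*Atf3* was the only gene of the 10 whose change after hyperoxia was called. Its signal in the inferior retina was 8.05 and 7.91 after hyperoxia, against 7.30 and 7.26 in controls. The superior retina gave 7.31 and 7.56 after hyperoxia, against 7.31 and 7.25 in controls. Both arrays of the hyperoxia-exposed inferior retina thus lay above all 6 others, and in the superior retina the groups overlapped, with only replicate 2 of the exposed retina raised. The rise in the inferior retina was 0.70 on the log2 scale (SE 0.11, 95% interval 0.46 to 0.95, 1.63-fold, adjusted p = 0.0374). In the superior retina the change was 0.15 (SE 0.11, interval -0.10 to 0.40, 1.11-fold, adjusted p = 0.925). The 2 changes differed by 0.55 (SE 0.15, interval 0.20 to 0.90), which had an unadjusted p of 0.00619 and did not pass the adjustment (adjusted p = 0.678). Within hyperoxia the inferior retina lay 0.55 above the superior (SE 0.11, adjusted p = 0.198), and within controls the regions differed by 0.00 (SE 0.11, interval -0.25 to 0.24). The call was lost when any 1 of the hyperoxia inferior or control arrays was left out (adjusted p of 0.0901 to 0.163), after quantile normalization (0.0503), with only the arrays of the comparison (0.136) and by the methods' t-test (0.31), while the rise itself lay between 0.63 and 0.78 in these settings. The study lists *Atf3* among its region-dependent genes on these same samples, so the rise of *Atf3* is not independent evidence. The study's rule was a p under 0.05, with no adjustment described, and a minimum difference between the fold ratios of the regions. The unadjusted p of 0.00619 from limma is also under 0.05. The listing and the adjusted p of 0.678 thus rest on different thresholds and are not in conflict. In the inferior retina the microglia marker sum above rose and the level of *Glul* fell, and their part in the rise of *Atf3* was not tested. In whole retina, more cells of a type and more RNA per cell cannot be told apart.

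**Figure D1:**
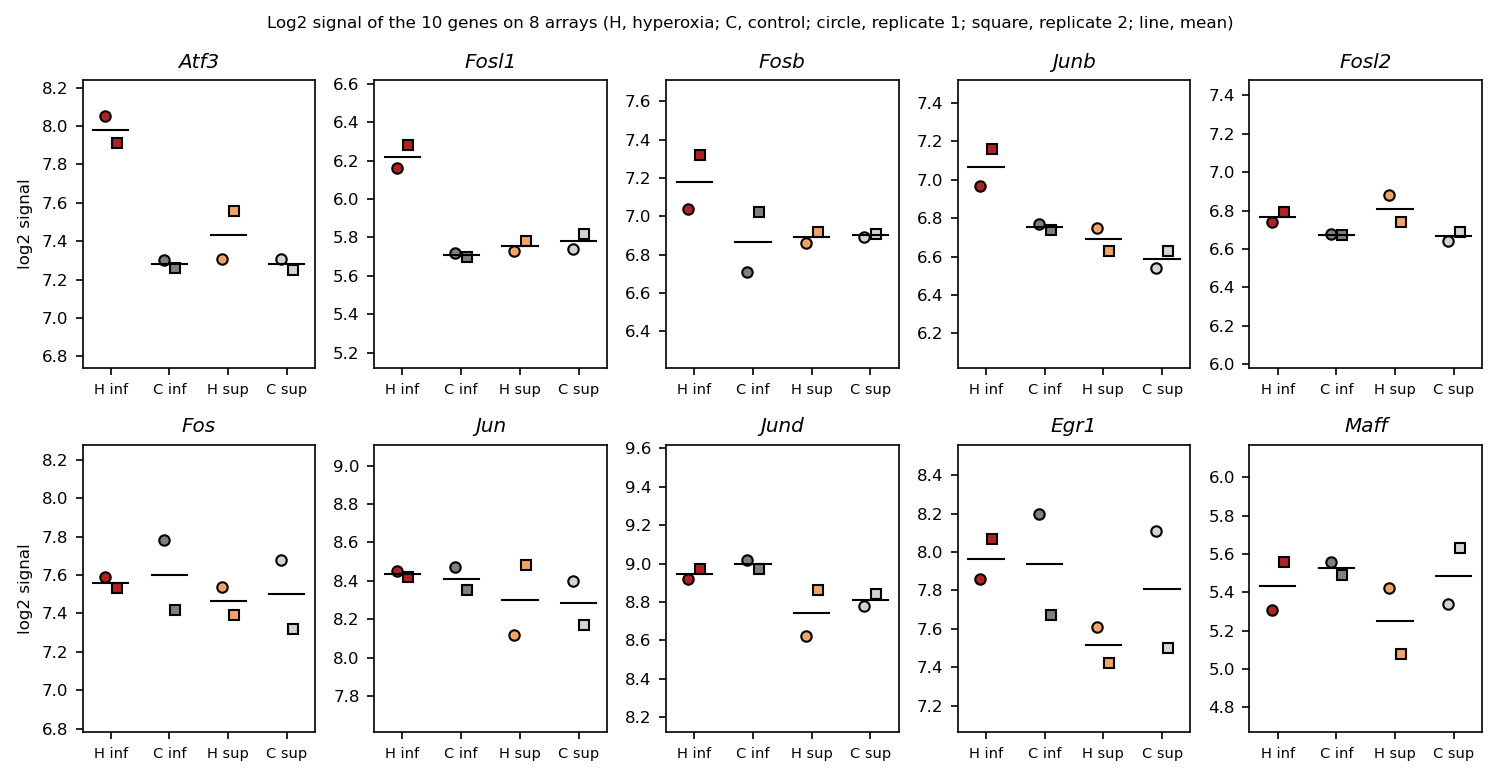
Log2 signal of each of the 10 genes on the 8 arrays, in panels that all span the same range of log2 units; each group shows replicate 1 as a circle, replicate 2 as a square and their mean as a line. *Atf3*, *Fosl1*, *Junb* and, by a small margin, *Fosb* stand highest on the hyperoxia inferior arrays, and the control arrays of *Egr1* and *Fos* lie far apart.

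The proximal promoters of *Atf3*, *Fosb* and *Junb*, which had 3 of the 4 largest changes in the inferior retina, and of *Fos*, whose change was near 0, are shown so that the binding sites of AP-1 and related factors can be compared. The 150 bases before the annotated transcript start are given on the gene's own strand, from RefSeq's annotation of build GRCm38.p6, with capitals marking TGACG or its reverse complement CGTCA, the core of the cAMP response element, and, in Fosb only, the Egr motif GCGGGGGCG.
Atf3 (chr1:191183334-191183483, minus strand): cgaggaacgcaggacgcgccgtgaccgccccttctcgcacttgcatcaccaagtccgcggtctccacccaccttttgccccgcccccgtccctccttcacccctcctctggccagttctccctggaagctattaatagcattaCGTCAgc
Fosb (chr7:19310046-19310195, minus strand): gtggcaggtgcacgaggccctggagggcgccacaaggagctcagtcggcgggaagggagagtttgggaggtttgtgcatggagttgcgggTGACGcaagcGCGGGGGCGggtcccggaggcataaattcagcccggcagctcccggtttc
Junb (chr8:84978749-84978898, minus strand): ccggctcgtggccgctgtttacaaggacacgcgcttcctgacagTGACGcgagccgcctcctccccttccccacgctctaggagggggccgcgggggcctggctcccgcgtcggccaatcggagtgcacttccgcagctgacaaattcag
Fos (chr12:85473740-85473889, plus strand): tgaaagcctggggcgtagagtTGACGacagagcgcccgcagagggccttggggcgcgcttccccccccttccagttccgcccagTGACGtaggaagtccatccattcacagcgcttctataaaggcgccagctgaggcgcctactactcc
The 250 bases before the start were searched on both strands in 10 promoter windows of 8 genes, all but *Fosl1* and *Egr1*. The core TGACG was in 6 of these windows, of 5 genes (*Atf3*, *Fosb*, *Fos*, *Junb* and *Maff*), and in 17.8% of 32851 mouse promoter windows of that length. The full element TGACGTCA, which contains the core, was in 1 window, of *Maff*, against 1.55% of all windows. The sequence TGAGTCA and its reverse complement TGACTCA were in 0 of the 10 windows and in 4.46% of all. The Egr motif, searched as GCGTGGGCG and GCGGGGGCG and their reverse complements, was in 3 windows, those of *Fosb*, *Fosl2* and *Maff*, against 3.06% of all windows. The core was among the motifs searched with these genes in view, and a match is a description of the letters and no evidence of binding. Counted back from the annotated start, the core spanned positions -7 to -3 in *Atf3*, while in *Fosb* it began at -60 and the Egr motif at -50.

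*Fosl1*, which encodes the Fos protein Fra-1, came next. Its signal in the inferior retina was 6.16 and 6.28 after hyperoxia, against 5.72 and 5.70 in controls. The superior retina gave 5.73 and 5.78 after hyperoxia, against 5.74 and 5.82 in controls. As for *Atf3*, both arrays of the exposed inferior retina lay above the other 6, which spanned only 5.70 to 5.82. The change in the inferior retina, 0.51 (SE 0.09, interval 0.30 to 0.71, 1.42-fold), had an unadjusted p of 0.000353 and an adjusted p of 0.0609, which just missed the threshold; it was called under 1 of 16 alternatives, with only the 1-symbol probe sets in the correction (adjusted p = 0.0393), and the adjusted p reached 0.287 without hyperoxia inferior replicate 2. The change in the superior retina was -0.02 (interval -0.22 to 0.18). The difference between these changes was 0.53 (SE 0.12, interval 0.24 to 0.81, unadjusted p = 0.00255, adjusted p = 0.593). Its mean signal of 5.87 was under the limit of 6 used in a stricter filter.

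*Junb* and *Fosb* encode a Jun and a Fos protein that often pair with one another. *Junb* gave 6.97 and 7.16 in the inferior retina after hyperoxia, against 6.77 and 6.74 in controls, and 6.75 and 6.63 in the superior retina after hyperoxia, against 6.54 and 6.63 in controls. Its groups did not overlap in the inferior retina, and in the superior retina an exposed and a control array stood at 6.63, apart only beyond the second decimal. The change was 0.31 (SE 0.10, interval 0.09 to 0.54, unadjusted p = 0.0121, adjusted p = 0.329) in the inferior retina and 0.10 (interval -0.12 to 0.33) in the superior one. *Fosb* gave 7.04 and 7.32 in the inferior retina after hyperoxia, against 6.71 and 7.02 in controls, so that the groups parted by no more than 7.04 against 7.02. In the superior retina it gave 6.86 and 6.92 after hyperoxia, against 6.89 and 6.91 in controls. The change of *Fosb* was 0.31 (SE 0.13, interval 0.02 to 0.61, unadjusted p = 0.0404, adjusted p = 0.502) in the inferior retina and -0.01 (interval -0.31 to 0.29) in the superior one, and the difference between these 2 changes was 0.33 (interval -0.10 to 0.75). Without control inferior replicate 2, the array high in lens transcripts, the changes in the inferior retina from limma were 0.68 for *Atf3* (adjusted p = 0.123), 0.50 for *Fosl1* (adjusted p = 0.159), 0.30 for *Junb* (adjusted p = 0.417) and 0.47 for *Fosb* (adjusted p = 0.239). The change of *Fosb* was 0.16 without control inferior replicate 1 (unadjusted p = 0.281, adjusted p = 0.962), 0.17 without hyperoxia inferior replicate 2 (unadjusted p = 0.264, adjusted p = 0.899) and 0.46 without hyperoxia inferior replicate 1 (adjusted p = 0.347), so its size rested on single arrays of both groups.

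The remaining Fos and Jun genes gave changes near 0. *Fos*, whose product c-Fos is the standard marker of recent neuronal activity, averaged 7.56 ± 0.04 in the inferior retina after hyperoxia and 7.60 ± 0.25 in controls (SD, n = 2 each). Superior retinas averaged 7.46 ± 0.10 after hyperoxia and 7.50 ± 0.26 in controls. The change was -0.04 in each region, with an interval of -0.39 to 0.31 in both, so that rises of up to 1.24-fold and falls to 0.763 of control are inside it. *Jun*, the partner of c-Fos, spanned 8.12 to 8.48 over all arrays, with a change of 0.03 (interval -0.28 to 0.34) in the inferior retina and 0.01 (interval -0.30 to 0.32) in the superior one. *Jund*, the Jun gene that many cells express without a stimulus, spanned 8.62 to 9.02 and changed by -0.05 (interval -0.29 to 0.18) in the inferior retina and -0.07 (interval -0.30 to 0.16) in the superior one. *Fosl2*, which encodes Fra-2, spanned 6.64 to 6.88. It lay higher after hyperoxia without overlap in both regions, but by only 0.09 (interval -0.11 to 0.29) in the inferior retina and 0.14 (interval -0.06 to 0.35) in the superior one.

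**Figure D2:**
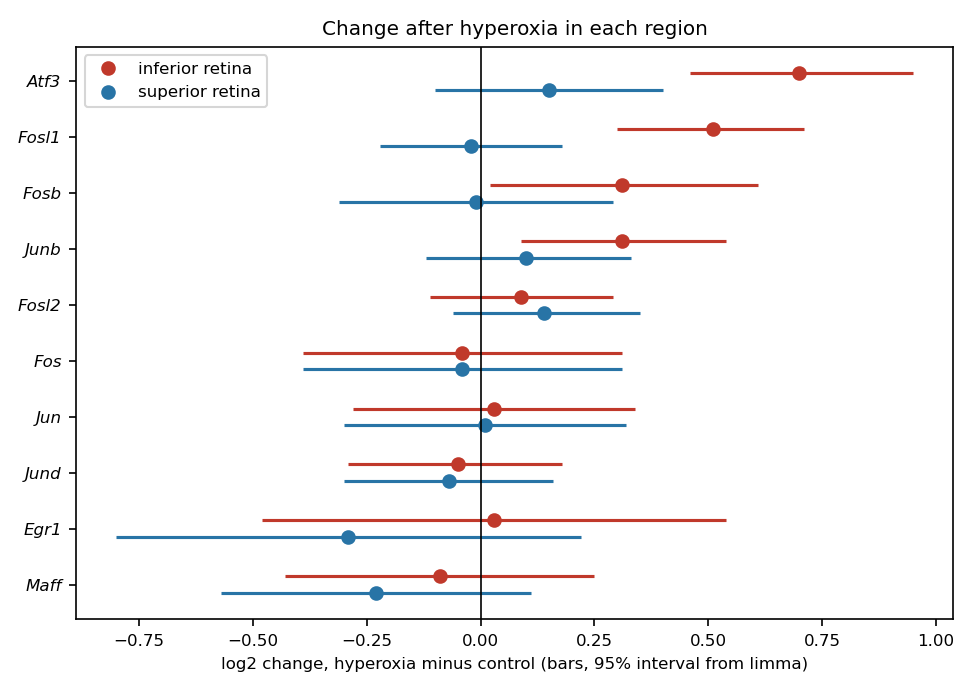
Change of the 10 genes on the log2 scale (hyperoxia minus control) in the inferior retina (red) and the superior retina (blue), with 95% intervals from limma. In the inferior retina the intervals of *Atf3*, *Fosl1*, *Junb* and *Fosb* lie above 0, and in the superior retina all 10 intervals include 0.

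*Egr1*, a zinc finger factor that is induced with *Fos*, and *Maff*, a small Maf protein that lacks an activation domain, belong to neither the Fos nor the Jun family. *Egr1* gave 7.86 and 8.07 in the inferior retina after hyperoxia, against 8.20 and 7.67 in controls, and 7.61 and 7.42 in the superior retina after hyperoxia, against 8.11 and 7.50 in controls. The groups overlapped in both regions, and the control replicates were further apart than the group means. Its change was 0.03 (SE 0.22, interval -0.48 to 0.54) in the inferior retina and -0.29 (SE 0.22, interval -0.80 to 0.22) in the superior one, the widest intervals of the 10 genes. *Maff* spanned 5.08 to 5.63 over all arrays, with a change of -0.09 (interval -0.43 to 0.25) in the inferior retina and -0.23 (interval -0.57 to 0.11) in the superior one.

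The counts of these genes were read against all probe sets. In the inferior retina 1 of the 10 genes was called after hyperoxia, against 0.492% of all probe sets, and 4 had an unadjusted p under 0.05, all higher after hyperoxia, against 9.39% of all. The arrays of the groups did not overlap for 6 of the 10, 5 higher and 1 lower (*Jund*), against 38.7% of all probe sets. The median change of the 10 was 0.06, against 0.005 over all probe sets. In the superior retina limma called 0 of the 10 (0.0173% of all), 0 had an unadjusted p under 0.05 (5.59% of all), and 2, *Fosl2* and *Junb*, did not overlap (35.9% of all). Averaged over both regions, 0 were called (0.568% of all) and 3 had an unadjusted p under 0.05 (8.98% of all): *Atf3* at 0.43 (adjusted p = 0.0621), *Fosl1* at 0.24 (adjusted p = 0.233) and *Junb* at 0.21 (adjusted p = 0.399). The difference between the regional changes passed for 0 genes (0.00347% of all), with 2, *Atf3* and *Fosl1*, at an unadjusted p under 0.05 (6.04% of all). The methods' t-test, adjusted over all probe sets, called 0 of the 10 in every comparison.

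Between the regions of exposed retinas, 9 of the 10 genes were on average higher in the inferior retina, with a median difference of 0.25 against 0.003 over all probe sets. This lean was not particular to the 10. Of 25 other immediate early genes, 20 were higher there, with a median of 0.12. Of 11 other AP-1 and Maf genes, 7 were higher, with a median of 0.01. All 4 measured ganglion cell genes were higher there too, with a median of 0.23. Of these 0 were called and 2 had an unadjusted p under 0.05 from limma, and their part in the lean was not tested. After hyperoxia the 25 genes had a median change of -0.09 in the superior retina (5 above 0) and 0.01 in the inferior (15 above 0). For the 10 genes these medians were -0.02 and 0.06. For 6 of the 10 genes the inferior arrays did not overlap the superior ones and were higher (38.5% of all probe sets did not overlap). *Atf3* at 0.55, *Fosl1* at 0.46 and *Junb* at 0.38 (adjusted p = 0.198, 0.179 and 0.332 from limma) were the 3 with an unadjusted p under 0.05 (8.5% of all), and 0 of the 10 were called (0.139% of all). *Egr1* lay 0.45 higher in the inferior retina (interval -0.06 to 0.96). Between the regions of control retinas, 0 were called (0.0% of all) and 0 had an unadjusted p under 0.05 (5.3% of all). For 3 the arrays did not overlap (34.2% of all): *Junb* by 0.17 and *Jund* by 0.18 higher in the inferior retina, and *Fosl1* lower there, at a difference of -0.07. Both regional comparisons share arrays with the changes after hyperoxia, so they are not separate observations.

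Among the 10 genes the control arrays of *Egr1* were the furthest apart, and those of *Egr1* and *Fos* differed in the same direction in both control groups. Among controls, replicate 1 exceeded replicate 2 by 0.53 in the inferior retina and 0.61 in the superior one for *Egr1*, and by 0.36 and 0.37 for *Fos*. Over all probe sets, 95% of these differences were under 0.31 in each control group. In exposed retinas the differences were smaller: -0.21 in the inferior retina and 0.19 in the superior one for *Egr1*, and 0.05 and 0.14 for *Fos*. *Atf3* differed between replicates by 0.15 in the inferior and -0.25 in the superior exposed retina, against 0.05 and 0.06 in the controls, and *Fosl1* by at most 0.12 in size in any group. Of the 25 other immediate early genes, replicate 1 was the higher for 14 in the inferior controls and 15 in the superior controls, with median differences of 0.02 and 0.06. *Dusp1* at 0.19 and 0.28 and *Arc* at 0.14 and 0.33 were higher in replicate 1 in both control groups, while *Egr2* stood at -0.63 among inferior and -0.05 among superior controls. The cause was not tested, and neither the paper nor the labels say whether same-numbered samples came from the same animals.

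**Figure D3:**
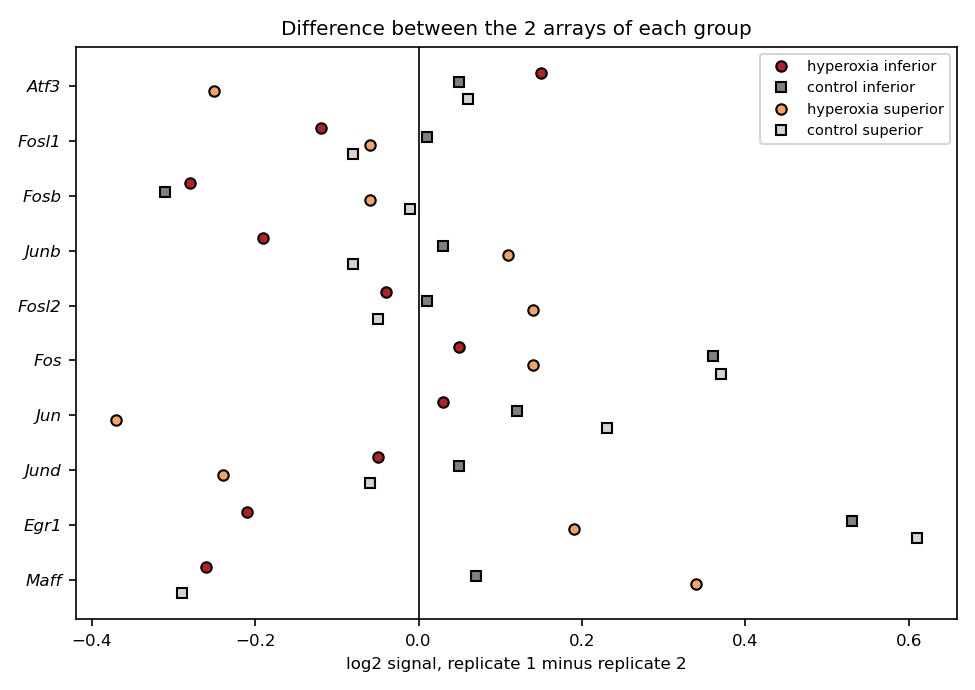
Difference in log2 signal between replicate 1 and replicate 2 of each group for the 10 genes (circles, hyperoxia; squares, control). The 2 control groups of *Egr1* lie at 0.53 and 0.61 and those of *Fos* at 0.36 and 0.37, right of every exposed group of either gene.

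In all, 4 lists of related genes were read beside the 10. Of 11 measured genes that encode other AP-1 and Maf proteins, 0 were called in the inferior retina by limma and 1 had an unadjusted p under 0.05, with a median change of -0.03 (0.005 over all probe sets, of which 0.492% were called and 9.39% had such a p). That gene was *Atf7*, a relative of Atf2, at 0.28 (SE 0.10, adjusted p = 0.428), and next was *Atf4*, the effector of the integrated stress response, at 0.17 (SE 0.09, adjusted p = 0.618). Of 25 other immediate early genes 0 were called, 4 had an unadjusted p under 0.05, 2 higher and 2 lower, and the median change was 0.01. *Dusp1*, a phosphatase that switches off MAP kinases, gave 8.76 and 8.84 in the inferior retina after hyperoxia, against 9.47 and 9.28 in controls. Superior retinas gave 8.75 and 9.0 after hyperoxia, against 9.43 and 9.15 in controls. Its arrays did not overlap in either region, with a change of -0.58 (SE 0.13, unadjusted p = 0.00212, adjusted p = 0.137) in the inferior retina and -0.42 (SE 0.13, unadjusted p = 0.0127, adjusted p = 0.786) in the superior one. *Klf10*, a zinc finger transcription factor, gave 6.72 and 6.66 in the inferior retina after hyperoxia, against 6.07 and 6.32 in controls. Its change was 0.50 (SE 0.12, unadjusted p = 0.00233 and adjusted p = 0.145 from limma).

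Of 15 measured kinases and factors upstream of AP-1, 0 were called in the inferior retina by limma and 1 had an unadjusted p under 0.05, with a median change of -0.02. These were led by *Map2k1*, the kinase MEK1, at -0.25 (SE 0.10, unadjusted p = 0.0387, adjusted p = 0.498), and by *Mapk10*, the neuronal Jun kinase JNK3, at -0.23 (SE 0.10, unadjusted p = 0.0536, adjusted p = 0.547). Of 15 measured genes known as AP-1 targets, 3 were called higher in the inferior retina and 0 lower, with a median change of 0.17, and 5 had an unadjusted p under 0.05, all higher after hyperoxia, against 0.492% and 9.39% of all probe sets called or with such a p. These 3 were *Gfap*, the intermediate filament of astrocytes and reactive Muller cells, at 2.42 (SE 0.12, adjusted p = 0.000259), *Timp1*, an inhibitor of matrix metalloproteinases, at 1.46 (SE 0.11, adjusted p = 0.00114), and *Mt2*, a metal-binding antioxidant protein, at 1.27 (SE 0.15, adjusted p = 0.00929). *Mt2* had a signal of 11.05 and 11.21 in the inferior retina after hyperoxia, against 9.79 and 9.92 in controls. All 3 are genes that the study names on these samples, so their rise is not independent evidence of the list's direction, and each has regulators besides AP-1. *Hmox1*, the inducible heme oxygenase, gave 7.34 and 7.70 in the inferior retina after hyperoxia, against 6.88 and 7.01 in controls, at 0.58 (SE 0.13, adjusted p = 0.134). *Cd44*, an adhesion receptor of reactive glia, gave 7.69 and 7.77 after hyperoxia, against 6.87 and 7.51 in controls, at 0.54 (SE 0.19, adjusted p = 0.412). In the superior retina *Gfap* alone of the 15 was called, at 1.25 (adjusted p = 0.0296), where 0.0173% of all probe sets were. The median change of the list was 0.18 there, with 14 of the 15 genes above 0, against 12 of 15 in the inferior retina, so the median was not larger in the inferior region. Single genes did differ: in the superior retina *Timp1* changed by 0.18 and *Mt2* by 0.48. For 4 of the 15 the difference between the regional changes had an unadjusted p under 0.05 from limma (6.04% of all probe sets). All 4 changes were larger in the inferior retina, and 0 of the 15 differences were called.

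**Figure D4:**
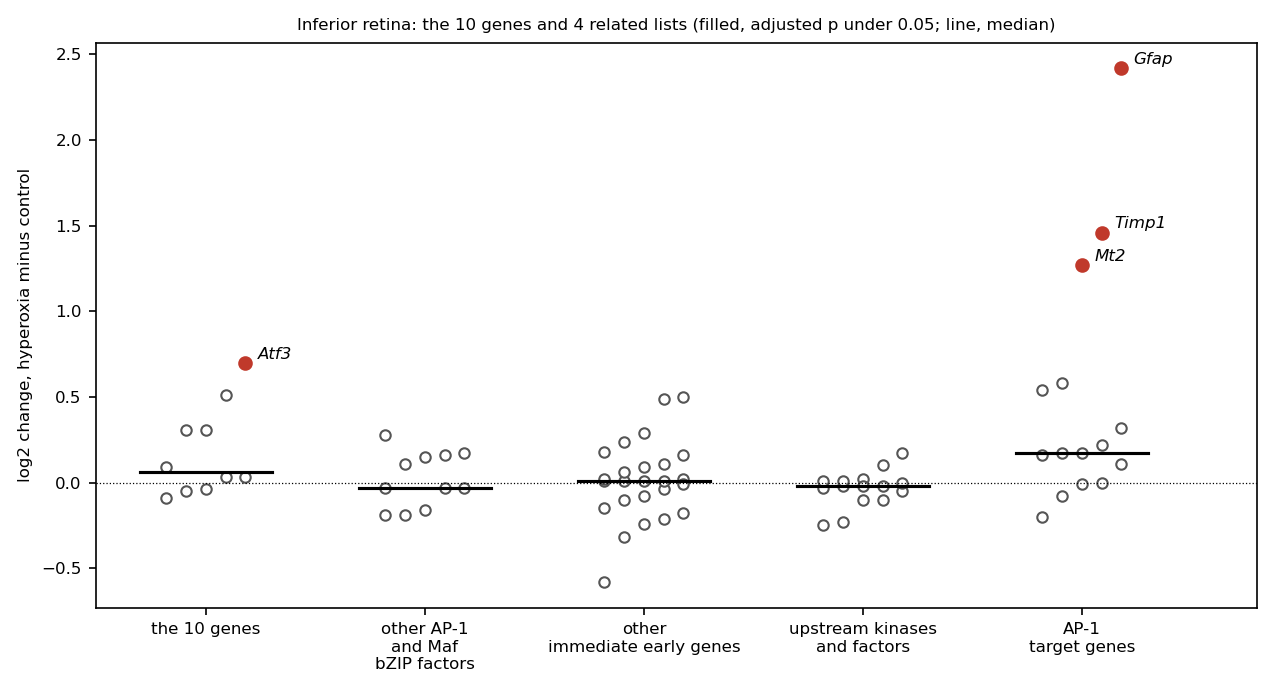
Inferior retina, log2 change (hyperoxia minus control) of the 10 genes and of 4 lists of related genes, each point a gene and each line the list's median. The filled points are those with an adjusted p under 0.05, *Atf3* and the AP-1 targets *Gfap*, *Timp1* and *Mt2*; all other points, open, lie between -0.58 and 0.58.

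The genes most like *Atf3*, *Fos* and *Junb* over the 8 arrays were sought among 13893 genes with a mean log2 signal of 6 or more, by the root mean square difference of log2 values centred on each gene's own mean. Nearest to *Atf3* were *Ipo5*, a nuclear import receptor, at 0.070, *Bcl6*, a transcriptional repressor, at 0.072, and *Msn*, which links actin to the membrane, at 0.076, while the values of *Atf3* themselves spread by 0.298. Their changes in the inferior retina were 0.53 (adjusted p = 0.0831), 0.68 (adjusted p = 0.0876) and 0.80 (adjusted p = 0.0498). *Msn* gave 8.80 and 8.71 in the inferior retina after hyperoxia against 8.04 and 7.86 in controls, and 8.07 and 8.45 in the superior retina after hyperoxia against 8.04 and 7.97 in controls, so that replicate 2 stood above replicate 1 in the exposed superior retina as for *Atf3*. Nearest to *Junb*, whose values spread by 0.190, were *Apoe*, a lipid carrier made by retinal glia, at 0.055, *Gabarap*, an autophagy protein, at 0.060, and *Tspo*, a mitochondrial protein of reactive microglia and glia, at 0.064. Nearest to *Fos*, whose values spread by 0.144, were *Tecrl* at 0.058, *Dcbld2* at 0.059 and *Rbp2* at 0.063, in which, too, replicate 1 of both control groups exceeded replicate 2. All these genes were picked for closeness over the same 8 arrays, replicates included. Their shared changes and replicate differences therefore follow from that choice and are no separate evidence.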

How the data were processed

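The authors deposited log2 values of 28853 probe sets on 8 arrays, summarized in Partek by median polish after RMA background correction; no software version is given in the sources used here, nor whether arrays were also normalized to each other. They were used as deposited. The platform annotation gave 1 symbol for 21789 probe sets, several for 1621 and listed none for 5443, and only the first kind named a gene; each of the 10 genes had 1. All 8 arrays entered 1 limma model (version 3.58.1, R 4.3.3) with a mean for each of the 4 groups. It gave empirical Bayes p-values with Benjamini-Hochberg adjustment over all probe sets (threshold 0.05), and 95% intervals used 8.47 degrees of freedom. The fit was also run on simulated data with independent normal noise. Those data held no differences between whole arrays, so that run does not measure the error on these arrays. The 2 arrays per group limit the precision, and the p-values reflect only the spread among these samples, which may be technical. All 10 genes are named; from each list of related genes, those that passed, or else the 2 with the smallest unadjusted p in the inferior retina, and *Hmox1*, *Cd44*, *Glul*, *Arc* and *Egr2*, which were chosen after their values were seen. The members and lists were chosen with earlier results of these data known. Some listed genes are not reported here. Alternatives tried were a replicate block, a robust prior, a variance trend, the methods' t-test, fitting only the arrays of the comparison, restricting the table to 1-symbol probe sets or to those with a mean of 6 or more, median centring, quantile normalization and leaving out each array. The mean over several probe sets of a gene could not be tried, since each gene had 1. Promoter sequences came from RefSeq.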

Additional observations from a re-analysis of the deposited data

How the results depend on the processing

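In the inferior retina, 1 of the 10 genes, *Atf3*, was called after hyperoxia. That count was 0 after quantile normalization (adjusted p of *Atf3* 0.0503), 0 with only the arrays of the comparison (0.136), 0 by the methods' t-test (0.31) and 2, *Atf3* and *Fosl1*, with 1-symbol probe sets only. With single arrays left out it ranged from 0 to 1: it was 0 without either hyperoxia inferior array, either control inferior array or either control superior array, and 1 without either hyperoxia superior array. Averaged over both regions, the count of 0 became 1, *Atf3*, with dim probe sets left out, with 1-symbol probe sets only and with a variance trend. The counts in the other 4 comparisons were 0 under every alternative run. The count over all probe sets in the inferior retina, 142, was 2 by the methods' t-test, 39 with only the arrays of the comparison, 259 with dim probe sets left out, 374 with a variance trend, and 35 to 168 with an array left out. Leaving out dim probe sets removed *Fosl1* and *Maff* from the test.

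The rise of *Atf3* in the inferior retina lay between 0.63 and 0.78 under the 17 alternatives, with adjusted p of 0.0116 to 0.31. Of 988 values of single genes under an alternative, 38 had the opposite sign, 0 of them of a change with an unadjusted p under 0.05. With the replicate number as a replicate block, the count in the inferior retina was 0 (adjusted p of *Atf3* 0.0651), the only call that the block changed, and 127 probe sets passed in all. Deviations of same-numbered samples correlated between groups at -0.021 to 0.144. Between the regions the correlation was 0.104 after hyperoxia and 0.072 in controls. The numbers were therefore not taken to pair the samples, and the regional comparisons were fitted as unpaired.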
